A study of Xenopus laevis with 6 samples.

Results

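The genes described here are 69 components of the Wnt and planar polarity pathways of Xenopus laevis, measured in cultured animal caps after knockdown of ERK3 or TFAP2A. They were chosen by symbol alone: Wnt ligands and their acyltransferase porcn, Frizzled receptors, co-receptors, secreted inhibitors and agonists, Axin, Apc, Gsk3, Dishevelled and Daam1, TCF/LEF factors, and the Vangl, Prickle and Celsr families. Of 11303 genes with a single symbol on the array, 69 met that rule, through 103 probe sets, and each gene is represented by its brightest probe set. Xenopus laevis is allotetraploid, and a final .L or .S names the 2 copies (homeologues) of a gene, which were kept apart.

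An animal cap is a piece of blastula ectoderm that becomes epidermis if left without further signals. Embryos from in vitro fertilization were injected at the 4-cell stage, on the animal side of every blastomere, with antisense morpholinos, which block translation or splicing of a transcript. The 3 groups received 80 ng of Control MO, or 40 ng of each of 2 morpholinos against ERK3 (ERK3 MO1/2) or against TFAP2A (TFAP2A MO1/2). The labels give no other treatment and no genotype. The arrays of the groups are called control, ERK3 and TFAP2A arrays below. Caps were cut at stage 9, cultured alone and collected at stage 15, and each group had 2 arrays that the labels call biological replicates. The injection is not limited to 1 cell type of the caps, the labels do not say how many caps made up an array, and both pairs share 1 control morpholino at the same total dose.

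Wnt proteins are secreted lipid-modified ligands. With a Frizzled receptor and the co-receptor Lrp5 or Lrp6 they halt a destruction complex of Axin, Apc and Gsk3, so that beta-catenin accumulates and acts on genes with TCF/LEF factors. Frizzled and Dishevelled also serve a second route, planar cell polarity, in which Vangl, Prickle and Celsr proteins align cells within the plane of a tissue. In the Xenopus embryo that route is known for convergent extension and for orienting the cilia of the epidermis, and Wnt8a for patterning mesoderm and the neural plate border.

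Values are intensities from the robust multiarray average (RMA), here on a linear scale, and differences are on the log2 scale with the standard error (SE) of a limma fit to all 6 arrays, 2 per group. A gene was called higher or lower at a Benjamini-Hochberg adjusted p under 0.05 over all 32539 probe sets tested. The median intensity was 23.2 to 24.6 and the lower quartile 6.36 to 6.96 on the arrays, and a gene under the lower quartile on both arrays of a group is described as not above background there. Correlations across probe sets were 0.987 to 0.989 within groups and 0.962 to 0.983 between groups. The ERK3 transcript itself was not analysed here. For tfap2a.L, the intensities were 1125.5 and 753.4 in controls, 1816.6 and 1425.1 after ERK3 knockdown and 1495.2 and 1286.8 after TFAP2A knockdown. The other copy, tfap2a.S, read 718.3 and 528.2 in controls, 1237.1 and 1055.8 after ERK3 knockdown and 717.9 and 741.8 after TFAP2A knockdown. It rose by 0.89 with ERK3 MO1/2 (adjusted p = 0.0362), where tfap2a.L differed by 0.81 (adjusted p = 0.0847), and neither was called with TFAP2A MO1/2 (0.59 for tfap2a.L and 0.24 for tfap2a.S). A morpholino need not lower its target's RNA, so this does not check the labels. Of 16 epidermal ectoderm genes, only xepsin.S was not above background in all groups, and krt70.S, an epidermal keratin gene, had intensities of 11236.3 and 10666.7 in control caps.

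Against the control caps, caps with ERK3 MO1/2 had lower levels of the polarity gene vangl1.L, the receptor gene fzd8.S, the inhibitor gene dkk1.S and the ligand gene wnt8a.L, and higher levels of the receptor gene fzd3.L and the inhibitor gene wif1.S. In all, 6 of 69 members fell, 3 rose and 60 did not pass. The members called were 13.0%, beside 10.6% of all probe sets and 11.8% of the 11303 genes. By direction, 8.70% of members were lower and 4.35% higher, beside 7.88% and 3.95% of genes. In TFAP2A knockdown caps 6 members fell, 3 rose and 60 did not pass. Those called included vangl1.L, dkk1.S, lrp5.L and apc.L, which fell, and fzd3.L, which rose. The members called were again 13.0%, beside 11.3% of probe sets and 12.3% of genes. Lower were 8.70% of members beside 7.41% of genes, and higher 4.35% beside 4.91%, so in neither knockdown did the members' share stand far from the background. With each array centred on its median, ERK3 knockdown gave 4 higher and 4 lower, beside 10.5% of all probe sets called. The median difference over the 69 members was -0.03 in the ERK3 comparison and -0.05 in the TFAP2A comparison. Over the 11303 genes it was 0.01 in each, and over all probe sets 0.04 and 0.02.

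The comparisons share the control arrays, so their values are given side by side. The genes called in both were vangl1.L, dkk1.S and fzd10.L, each lower, and fzd3.L, higher. In bulk RNA, fewer cells of a type and less RNA per cell cannot be told apart.

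**Figure D1:**
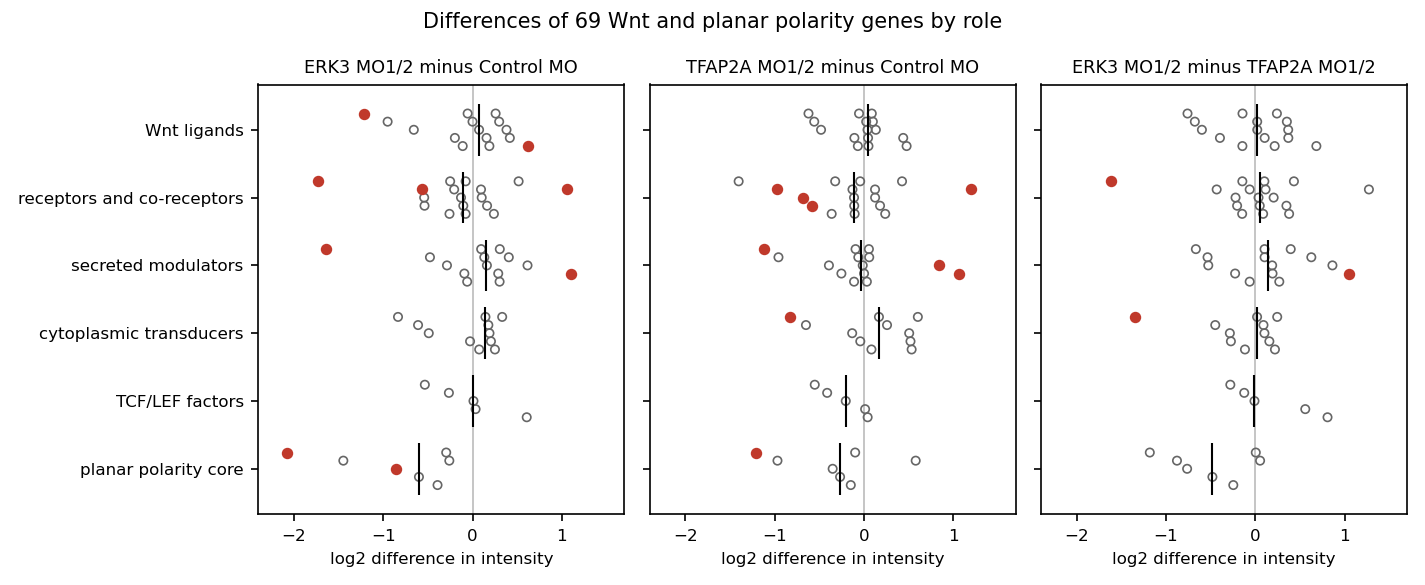
Each point is 1 of 69 genes, placed by its log2 difference in intensity (horizontal axis) and grouped by role (vertical axis), with filled red points for genes called at an adjusted p under 0.05, open points for the rest and a black line at the median of the role. All 7 planar polarity core genes, here Vangl, Prickle and Celsr genes only and with both copies of vangl2 and of prickle1, lie under 0 in the left panel. Of them 2 were called, beside 7.88% of all genes called lower. Most ligands, receptors and TCF/LEF factors lie within 0.5 of 0.

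Among the ligand genes, wnt8a.L fell and wnt8b.S rose with ERK3 MO1/2, and none was called with TFAP2A MO1/2. Of 14 ligand genes, 4 were not above background in control caps and 2, wnt11.S and wnt6.S, in any group. The ligand of the ventrolateral mesoderm, wnt8a.L, had intensities of 25.5 and 24.4 in controls, 9.8 and 11.7 after ERK3 knockdown and 18.6 and 14.1 after TFAP2A knockdown. Both ERK3 arrays lay under every other array, and both TFAP2A arrays lay between them and the controls. The gene fell by 1.22 ± 0.18 with ERK3 MO1/2 (adjusted p = 0.0161), while its difference of -0.62 ± 0.18 with TFAP2A MO1/2 did not pass (adjusted p = 0.0814). Between the knockdowns the difference was -0.60, with a 95% interval of -1.03 to -0.16 and an adjusted p of 0.127.

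Its relative wnt8b.S, a forebrain ligand, read 4.7 and 4.3 in controls, 7.5 and 6.2 after ERK3 knockdown and 4.3 and 4.2 after TFAP2A knockdown. The control and TFAP2A arrays were not above background, and of the ERK3 arrays only replicate 1 was. The gene was called higher with ERK3 MO1/2 (adjusted p = 0.0464), at least 1.06-fold against the lower quartile.

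Among the brighter ligand genes, wnt11b.L, a maternal ligand that also serves the polarity route, read 313.0 and 584.1 in controls, 127.9 and 381.9 after ERK3 knockdown and 237.8 and 355.4 after TFAP2A knockdown. The arrays of a group lay far apart, and each knockdown overlapped the controls. Its difference of -0.95 ± 0.56 with ERK3 MO1/2 did not pass (adjusted p = 0.335). For porcn.L, the acyltransferase that lipid-modifies Wnt proteins, the values were 55.5 and 58.9 in controls, 34.5 and 38.1 after ERK3 knockdown and 53.9 and 69.7 after TFAP2A knockdown. The ERK3 arrays were the lowest, at -0.66 ± 0.16 against controls (adjusted p = 0.0573) and -0.76 ± 0.16 against TFAP2A knockdown caps (adjusted p = 0.0606), and neither passed. Differences of the other ligand genes that were not called lay between -0.20 and 0.42 with ERK3 MO1/2. With TFAP2A MO1/2 none of the 15 genes of this role was called. There 3 had an unadjusted p under 0.05, beside 3435 of all 11303 genes.

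Receptor genes moved in opposite directions. The Frizzled gene fzd3.L, known for axon guidance and the neural crest, is also linked to the polarity route. It had 108.0 and 91.7 in controls, 246.6 and 172.5 after ERK3 knockdown and 213.3 and 244.4 after TFAP2A knockdown. All 4 knockdown arrays lay above both controls. It rose by 1.05 ± 0.21 (adjusted p = 0.0323) and 1.20 ± 0.21 (adjusted p = 0.0224), and the difference between the knockdowns was -0.15 with an interval of -0.65 to 0.36.

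The anterior Frizzled gene fzd8.S read 763.9 and 701.1 in controls, 194.5 and 250.7 after ERK3 knockdown and 656.5 and 701.6 after TFAP2A knockdown. For this probe set only the ERK3 arrays were apart. The fall was 1.73 ± 0.16 against controls (adjusted p = 0.0082) and 1.62 ± 0.16 against TFAP2A knockdown caps (adjusted p = 0.0143). The other 3 probe sets with this symbol gave smaller or opposite differences, of -0.74, -0.50 and 0.18 against controls and -0.07, -0.44 and 0.33 against TFAP2A knockdown caps, none of them called. With TFAP2A MO1/2 they differed from controls by -0.67, -0.06 and -0.15, also not called. The one at -0.67 read 151.1 and 245.0 in controls and 108.3 and 134.5 after TFAP2A knockdown. Which arrays lay apart therefore depends on the probe set. Averaged over the 4 probe sets, the call against controls held and that against TFAP2A knockdown caps was lost. Its homeologue fzd8.L was not above background in any group.

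Both copies of fzd10, a Frizzled of the dorsal neural tube, were lower with TFAP2A MO1/2. Levels of fzd10.L were 57.7 and 60.0 in controls, 37.7 and 42.1 after ERK3 knockdown and 35.2 and 38.3 after TFAP2A knockdown, falls of 0.56 ± 0.13 (adjusted p = 0.0459) and 0.68 ± 0.13 (adjusted p = 0.0278). Levels of fzd10.S were 376.5 and 379.5 in controls, 334.4 and 321.0 after ERK3 knockdown and 234.9 and 270.0 after TFAP2A knockdown. The TFAP2A arrays were the lowest, a fall of 0.59 ± 0.13 (adjusted p = 0.04), and the ERK3 arrays, also under both controls, differed by -0.21 ± 0.13 (adjusted p = 0.358). Between the knockdowns fzd10.S differed by 0.38, with an interval of 0.07 to 0.69 and an adjusted p of 0.164.

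The co-receptor gene lrp5.L read 34.4 and 34.5 in controls, 29.3 and 19.2 after ERK3 knockdown and 18.9 and 16.3 after TFAP2A knockdown. Every knockdown array lay under the controls, and the TFAP2A arrays were the lowest. It fell by 0.97 ± 0.22 with TFAP2A MO1/2 (adjusted p = 0.0437), while -0.54 ± 0.22 with ERK3 MO1/2 did not pass (adjusted p = 0.178). For the other co-receptor gene, lrp6.L, the differences of 0.52 ± 0.13 (adjusted p = 0.0613) and 0.43 ± 0.13 (adjusted p = 0.096) did not pass. A second lrp6.L probe set of similar brightness, with 9.0 and 10.3 in controls, gave 0.00 and -0.14, so no direction is given for this gene. For ror2.L, a receptor tyrosine kinase for Wnt5a, the values were 56.0 and 72.0 in controls, 38.7 and 87.0 after ERK3 knockdown and 24.9 and 23.1 after TFAP2A knockdown. Only the TFAP2A arrays lay apart, by -1.40 ± 0.37 (adjusted p = 0.0661), and the ERK3 arrays spread around the controls. Differences of ptk7.L and ptk7.S, a receptor-like partner of the polarity route with 314.5 and 383.1 (ptk7.L) in control caps, lay between -0.10 and 0.16 in both knockdowns.

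Among secreted modulators, dkk1.S, the inhibitor that binds Lrp5 and Lrp6, was lower in both knockdowns. It read 23.4 and 28.2 in controls, 9.1 and 7.5 after ERK3 knockdown and 13.1 and 10.7 after TFAP2A knockdown. All knockdown arrays lay under both controls, the ERK3 arrays lowest. The falls were 1.64 ± 0.18 (adjusted p = 0.00996) and 1.12 ± 0.18 (adjusted p = 0.019), and between the knockdowns -0.53, with an interval of -0.96 to -0.09, did not pass (adjusted p = 0.168). The other dkk1.S probe set was not above background in any group.

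The Wnt-binding inhibitor gene wif1.S read 16.6 and 20.2 in controls, 33.4 and 46.6 after ERK3 knockdown and 17.9 and 20.3 after TFAP2A knockdown. Only the ERK3 arrays were high. It rose by 1.11 ± 0.20 against controls (adjusted p = 0.0275) and was higher by 1.05 ± 0.20 than in TFAP2A knockdown caps (adjusted p = 0.0474). Averaged over its 4 probe sets, neither call held. A dimmer probe set, at 7.9 and 9.0 in controls, gave 0.54 against controls (adjusted p = 0.0635) and 0.55 against TFAP2A knockdown caps (adjusted p = 0.0892). The rest were not above background in any group.

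With TFAP2A MO1/2, both copies of frzb, a secreted Frizzled-related inhibitor, were called higher at the edge of detection. Levels of frzb.S were 4.1 and 3.6 in controls, 6.2 and 4.2 after ERK3 knockdown and 9.2 and 7.1 after TFAP2A knockdown, where alone it was above background, at least 1.25-fold over the lower quartile (adjusted p = 0.0388). Those of frzb.L, 2.9 and 3.4 against 4.9 and 6.3, were not above background in any group (adjusted p = 0.0334), so no fold is given. The plain symbol frzb, with no copy named, did not share this: it read 5.8 and 7.0 in controls, 12.9 and 7.4 after ERK3 knockdown and 6.1 and 6.6 after TFAP2A knockdown. Its differences were 0.62 ± 0.27 (adjusted p = 0.205) and -0.01 ± 0.27 (adjusted p = 0.985). For sfrp2.S, another inhibitor of this family, the values were 112.5 and 79.8 in controls, 64.8 and 121.8 after ERK3 knockdown and 56.8 and 41.9 after TFAP2A knockdown. The TFAP2A arrays were the lowest, and the difference of -0.96 ± 0.34 did not pass (adjusted p = 0.138). Readings of sfrpx.S, a relative by name, were 28.2 and 27.7 in control caps, and it differed by -0.29 and -0.39 without passing. The Dickkopf gene dkk3.S, whose product does not bind Lrp5 and Lrp6 as Dkk1 does, was at 24.9 and 22.3 in control caps with differences of 0.30 and 0.03 that did not pass. In all, 4 of 14 modulator genes, dkk2.L, frzb.L, frzb2.L and sfrp5.S, were not above background in any group.

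**Figure D2:**
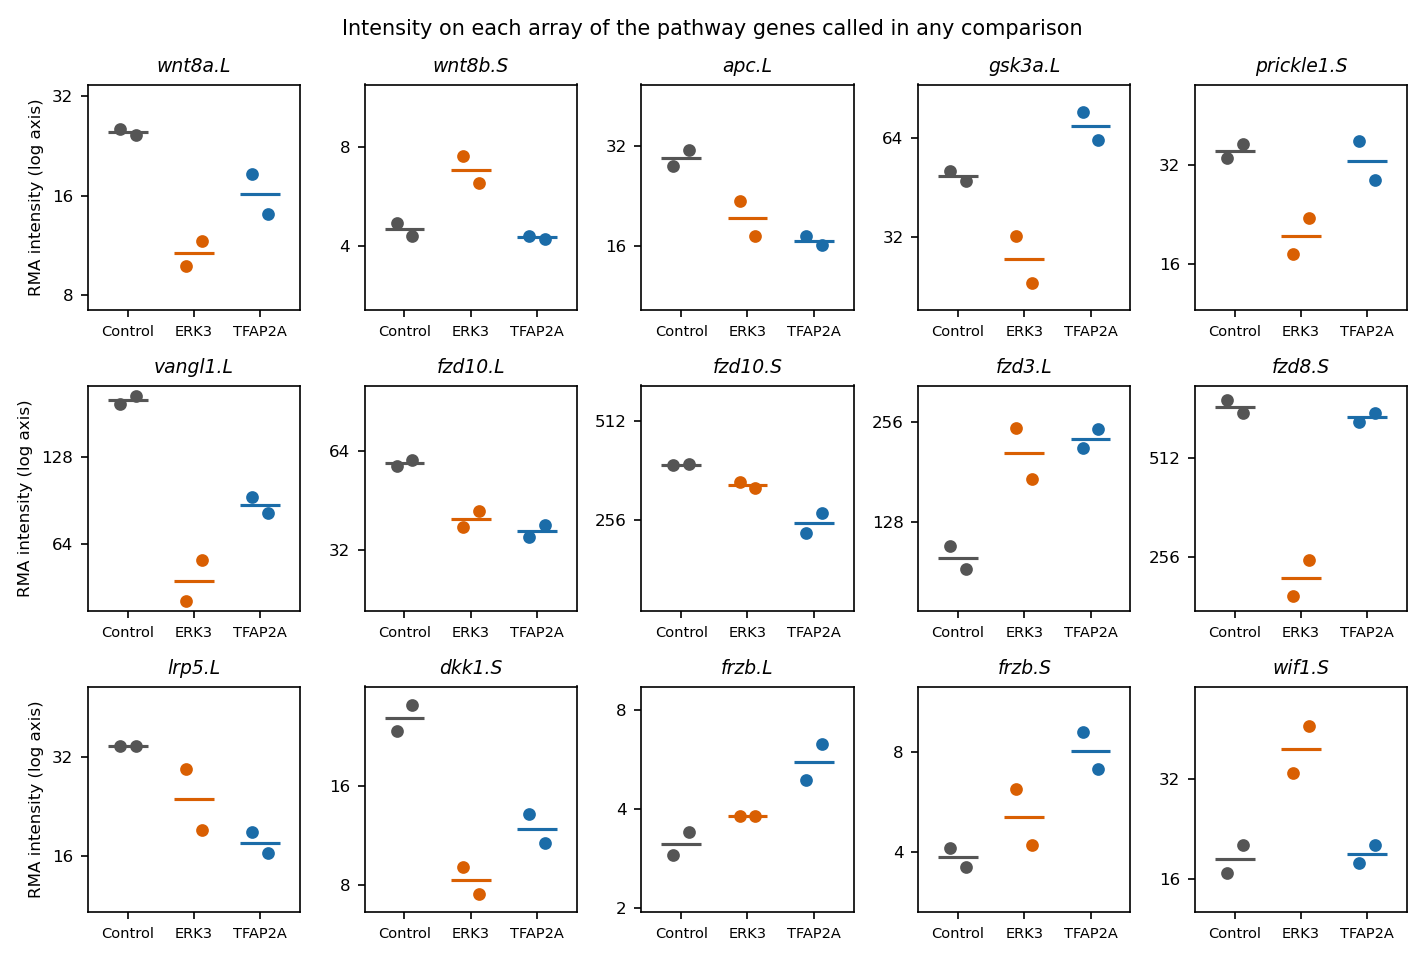
Intensity on a log axis (vertical) of the 15 genes called in any comparison, with 1 point per array, a bar at the geometric mean of the 2 arrays of a group, and Control MO, ERK3 MO1/2 and TFAP2A MO1/2 from left to right. For vangl1.L the control arrays sit at 195.6 and 208.9, the ERK3 arrays at 40.6 and 56.2 and the TFAP2A arrays at 93.5 and 82.3, while fzd8.S and wif1.S stand apart only in the ERK3 arrays.

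Of the 11 cytoplasmic transducer genes, apc.L encodes a component of the destruction complex. It read 27.9 and 31.2 in controls, 21.9 and 17.1 after ERK3 knockdown and 17.1 and 16.1 after TFAP2A knockdown. All knockdown arrays lay under the controls. It fell by 0.83 ± 0.16 with TFAP2A MO1/2 (adjusted p = 0.0306), and -0.61 ± 0.16 with ERK3 MO1/2 did not pass (adjusted p = 0.0685). The kinase gene gsk3b.L, at 20.1 and 20.9 in controls, 14.3 and 14.9 after ERK3 knockdown and 15.0 and 11.4 after TFAP2A knockdown, was also lowest in the knockdown arrays, but -0.49 ± 0.16 (adjusted p = 0.116) and -0.65 ± 0.16 (adjusted p = 0.0579) did not pass.

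The other Gsk3 kinase gene, gsk3a.L, separated the knockdowns. It read 50.8 and 47.1 in controls, 32.3 and 23.2 after ERK3 knockdown and 76.5 and 63.1 after TFAP2A knockdown, so that the controls lay between both knockdowns. Its difference between ERK3 and TFAP2A knockdown caps was -1.34 ± 0.20 (adjusted p = 0.0258), made up of -0.84 ± 0.20 (adjusted p = 0.0511) and 0.51 ± 0.20 (adjusted p = 0.165) against controls. A dimmer gsk3a.L probe set, with 14.7 and 15.4 in control caps, differed by -0.23 between the knockdowns and was not called.

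Dishevelled genes, whose products relay the signal from Frizzled in both routes, differed little: dvl2.L, at 311.2 and 305.8 in control caps, by 0.18 and 0.08, and dvl3.L, at 627.3 and 594.9, by -0.03 and -0.13. The intervals for dvl3.L were -0.49 to 0.43 with ERK3 MO1/2 and -0.59 to 0.33 with TFAP2A MO1/2. Both axin2 genes, feedback inhibitors and widely used targets of beta-catenin, had values above 0 that did not pass. They were 0.14 (axin2.L) and 0.25 (axin2.S) after ERK3 knockdown and 0.26 and 0.53 after TFAP2A knockdown, with upper interval bounds of 0.45, 0.83, 0.56 and 1.12. A dimmer axin2.S probe set, with 26.3 and 26.8 in controls and 18.9 and 23.4 after ERK3 knockdown, differed by -0.34 and 0.13 and was not called. The sign for axin2.S with ERK3 MO1/2 therefore depends on the probe set.

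The formin gene daam1.S, a Dishevelled partner in the polarity route, had 4 probe sets that disagreed. The brightest read 213.7 and 187.3 in control caps and 262.9 and 313.8 in TFAP2A knockdown caps, 0.52 ± 0.15 (adjusted p = 0.0808). Another of nearly the same brightness fell, from 230.1 and 249.8 to 162.6 and 151.3, by 0.61 ± 0.13 (adjusted p = 0.0408). The direction for this gene therefore depends on the probe set.

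None of the 5 TCF/LEF genes was called by limma in any comparison, and 2 had an unadjusted p under 0.05 in each. Over all 11303 genes, 3439, 3435 and 2675 had such a p in the ERK3, TFAP2A and direct comparisons. The repressor tcf7l1.L read 883.3 and 747.7 in controls, 819.3 and 844.4 after ERK3 knockdown and 808.0 and 866.2 after TFAP2A knockdown, all groups overlapping, with intervals of -0.30 to 0.37 and -0.29 to 0.37 around differences of 0.03 and 0.04. Its copy tcf7l1.S, at 182.9 and 170.5 in control caps, differed by -0.27 and 0.01. The gene lef1.S, at 26.4 and 32.7 in control caps, was lower on every knockdown array, by -0.53 ± 0.16 (adjusted p = 0.0873) and -0.41 ± 0.16 (adjusted p = 0.158), and did not pass. With ERK3 MO1/2, tcf7.S went the other way, from 33.2 and 43.5 in controls to 46.5 and 72.1, by 0.61 ± 0.24 (adjusted p = 0.175). Its second probe set gave 0.51 (adjusted p = 0.0885). With TFAP2A MO1/2 they differed by -0.20 and -0.14, and between the knockdowns by 0.81 (adjusted p = 0.13) and 0.65 (adjusted p = 0.073).

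In the planar polarity core, the brightest probe set of all 7 genes had a lower mean in ERK3 knockdown caps than in control caps, beside 5519 of 11303 genes. These 7 include both copies of vangl2 and of prickle1, and only Vangl, Prickle and Celsr genes were counted in this role. Frizzled and Dishevelled genes, which also serve the route, were counted among receptors and co-receptors and among cytoplasmic transducers. In those roles 11 of 17 and 4 of 11 genes were under 0 with ERK3 MO1/2. Of the Frizzled genes, fzd3.L rose while fzd8.S and fzd10.L fell. Of the 7, 2 were called lower, beside 7.88% of all genes. Their median difference was -0.60, beside 0.01 over the 11303 genes. With TFAP2A MO1/2 it was -0.27, again beside 0.01. There 6 of 7 were under 0, beside 5522 of 11303 genes, and 1 was called lower, beside 7.41% of all genes. The Vangl gene vangl1.L, a membrane protein of the core complex, had the smallest adjusted p of all members in both comparisons. It fell by 2.08 ± 0.19 with ERK3 MO1/2 (adjusted p = 0.00807), 4.23-fold, and by 1.20 ± 0.19 with TFAP2A MO1/2 (adjusted p = 0.0174), 2.31-fold. The levels of the 3 groups, 195.6 and 208.9 in control caps, 40.6 and 56.2 after ERK3 and 93.5 and 82.3 after TFAP2A knockdown, did not overlap. Between the knockdowns the difference was -0.88 ± 0.19, with an interval of -1.33 to -0.42 and an adjusted p of 0.0587 that did not pass.

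Its paralogue vangl2, the better studied of both in convergent extension, was bright in both copies and did not pass. Levels of vangl2.L were 520.0 and 562.7 in controls, 435.0 and 446.5 after ERK3 knockdown and 381.9 and 471.5 after TFAP2A knockdown. Those of vangl2.S were 794.0 and 751.7 in controls, 620.1 and 670.6 after ERK3 knockdown and 607.4 and 678.8 after TFAP2A knockdown. All 8 knockdown values lay under the controls of their gene. For the L and S copy the differences were -0.30 and -0.26 after ERK3 knockdown and -0.35 and -0.27 after TFAP2A knockdown, with lower interval bounds between -0.71 and -0.57.

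Prickle genes encode cytoplasmic partners of Vangl. Levels of prickle1.S were 33.7 and 37.2 in controls, 17.2 and 22.1 after ERK3 knockdown and 37.9 and 28.8 after TFAP2A knockdown. Only the ERK3 arrays were apart, a fall of 0.86 ± 0.20 (adjusted p = 0.0463), and -0.76 ± 0.20 between the knockdowns did not pass (adjusted p = 0.0909). The copy prickle1.L read 25.5 and 34.7 in controls, 12.8 and 30.1 after ERK3 knockdown and 39.7 and 49.8 after TFAP2A knockdown. Its ERK3 arrays were far apart, and -0.60 ± 0.41 did not pass (adjusted p = 0.402). A dimmer prickle1.L probe set, at 16.8 and 20.4 after ERK3 knockdown, differed from controls by 0.05 (adjusted p = 0.903). For prickle3.L the values were 82.3 and 129.0 in controls, 27.3 and 52.3 after ERK3 knockdown and 48.7 and 57.0 after TFAP2A knockdown. Every knockdown array lay under the controls, yet -1.45 ± 0.35 (adjusted p = 0.0554) and -0.97 ± 0.35 (adjusted p = 0.144) did not pass. The cadherin gene celsr2.L, at 25.3 and 26.2 in controls, 18.0 and 21.4 after ERK3 knockdown and 22.0 and 24.6 after TFAP2A knockdown, differed by -0.39 and -0.15 without passing, and its other probe set was not above background in any group.

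**Figure D3:**
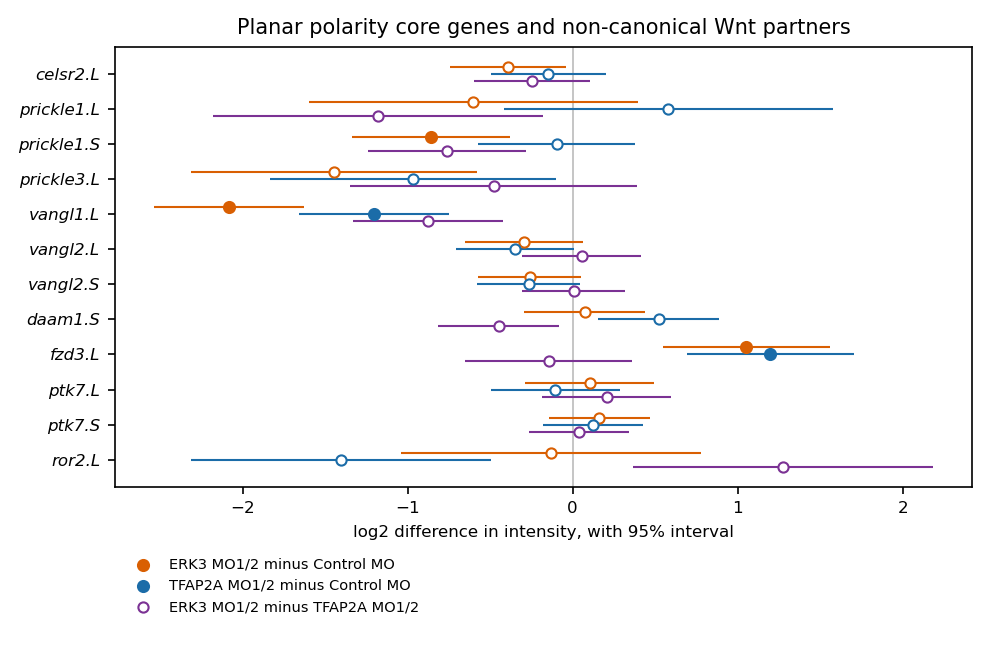
Log2 differences in intensity (horizontal axis) of the 7 planar polarity core genes and of 5 other members linked to that route, with 95% intervals of the limma fit, 3 comparisons by colour, filled points for called genes and open points for the rest. The point of vangl1.L lies at -2.08 for ERK3 MO1/2 and -1.20 for TFAP2A MO1/2. With ERK3 MO1/2 each of the 7 core genes, which are Vangl, Prickle and Celsr genes, lies left of 0. Of the other 5, fzd3.L lies at 1.05 and ror2.L at -0.13 there.

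Set directly against each other, the knockdowns differed in 3 of 69 members, 4.35%, beside 4.77% of all probe sets and 5.70% of genes. Higher were 1.45% of members beside 2.58% of genes, and lower 2.90% beside 3.11%. Lower in ERK3 knockdown caps were fzd8.S and gsk3a.L and higher was wif1.S, as given above. An unadjusted p under 0.05 was reached by 22 of 69 members, beside 2675 of 11303 genes. With each array centred on its median, 2 were higher and 2 lower, beside 4.89% of all probe sets called. Of the 9 members called with ERK3 MO1/2, 5 were not called with TFAP2A MO1/2, and for fzd8.S and wif1.S of these 5 the direct difference passed. For wnt8a.L, wnt8b.S and prickle1.S it did not, with adjusted p-values of 0.127, 0.0536 and 0.0909. Of the 5 called with TFAP2A MO1/2 but not with ERK3 MO1/2, none passed the direct limma comparison. These were apc.L (adjusted p = 0.532), lrp5.L (0.34), fzd10.S (0.164), frzb.L (0.145) and frzb.S (0.176), of which fzd10.S had an unadjusted p under 0.05, as did frzb.L and frzb.S.

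The calls rest on few arrays. Without either control array, limma called 0 of 69 members with ERK3 MO1/2, with smallest adjusted p-values of 0.0529 without Control MO replicate 1 and 0.0586 without replicate 2, and 16 and 15 members at an unadjusted p under 0.05. In those fits 0 of all 32539 probe sets were called too. The count was 3 without ERK3 MO1/2 replicate 1 (dkk1.S, fzd8.S and vangl1.L), where 0.821% of probe sets were called, and 4 without either TFAP2A array (the same 3 and wnt8a.L), where 6.15% were. Without ERK3 MO1/2 replicate 2 it was 6, these 4 with fzd3.L and prickle3.L, beside 5.15% of probe sets. With TFAP2A MO1/2, 0 were called without either control array or either TFAP2A array, with 13 to 19 at an unadjusted p under 0.05, and between 0.0215% and 2.14% of all probe sets were called there. Without either ERK3 array, 8 were called, 7 of the 9 and ror2.L, beside 9.22% of probe sets. In the direct comparison 0 were called without any 1 ERK3 or TFAP2A array, with 13 to 18 at an unadjusted p under 0.05 and at most 0.166% of probe sets called. It was 1, fzd8.S, beside 0.907% of probe sets, without either control array, which enters only the estimate of spread. Because the compared groups of each called gene did not overlap, leaving out 1 array could not change a sign. The change of vangl1.L ran from -2.32 to -1.85 after ERK3 knockdown and from -1.30 to -1.11 after TFAP2A knockdown. That of fzd8.S ran from -1.91 to -1.55 after ERK3 knockdown. In these fits the lone array of a group is taken to vary like the other groups.

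**Figure D4:**
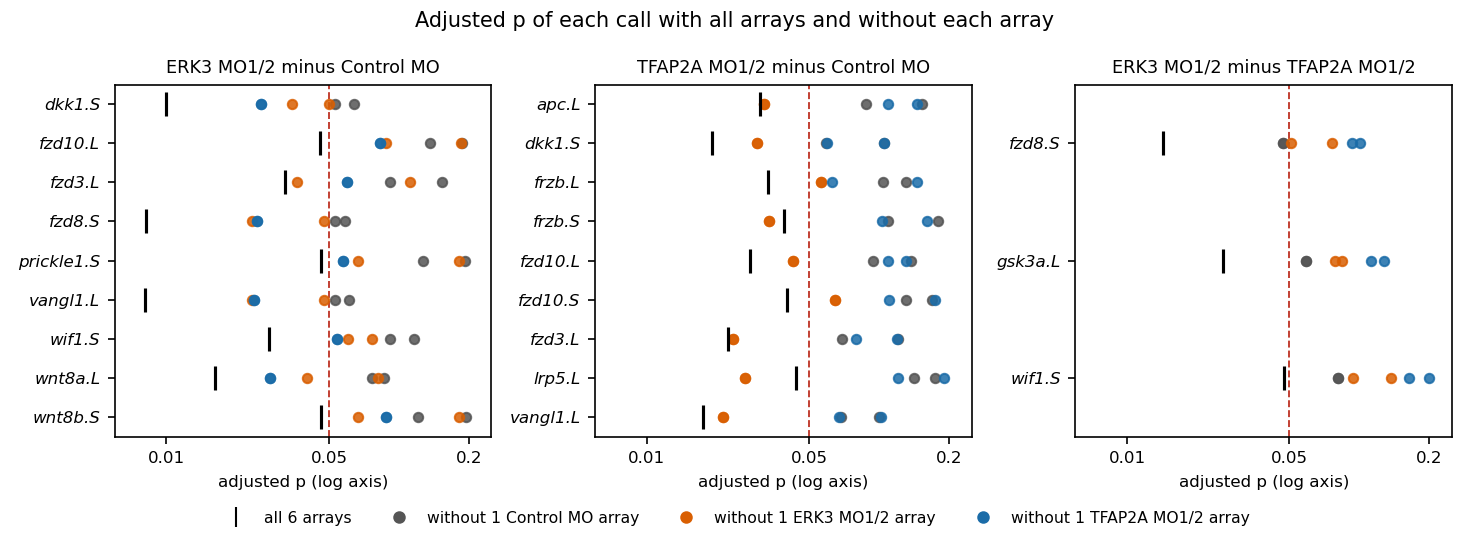
Adjusted p on a log axis (horizontal) of each called gene (vertical) in the 3 comparisons, with a black bar for all 6 arrays, 1 point for each left-out array coloured by its group, and a dashed line at the 0.05 threshold. Grey points, without a control array, lie right of the line for all 9 genes with ERK3 MO1/2, between 0.0529 for the smallest and 0.195 for the largest.

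Other genes of the pathways were taken from lists written by role. Of 43 further genes of the beta-catenin route, 2 rose and 41 did not pass with ERK3 MO1/2. With TFAP2A MO1/2, 3 rose and 2 fell. The medians were 0.15 and 0.12, and 11.8% and 12.3% of the 11303 genes were called in these comparisons. The beta-catenin cofactor gene bcl9.L was higher in both, at 471.0 and 476.5 in controls, 723.0 and 780.5 after ERK3 knockdown and 826.6 and 932.7 after TFAP2A knockdown, rises of 0.67 (adjusted p = 0.0302) and 0.89 (adjusted p = 0.0147). The ubiquitin ligase gene btrc.S, whose product marks beta-catenin for destruction, rose by 1.29 with ERK3 MO1/2 (adjusted p = 0.0232), and the casein kinase gene csnk1g2.L by 1.55 with TFAP2A MO1/2 (adjusted p = 0.0463). The Nemo-like kinase gene nlk.L read 10.2 and 8.4 in controls, 9.6 and 11.7 after ERK3 knockdown and 31.0 and 41.2 after TFAP2A knockdown. Only the TFAP2A arrays were high, a rise of 1.94 (adjusted p = 0.00873), and the direct difference of -1.75 passed too (adjusted p = 0.0189). Falls with TFAP2A MO1/2 were those of cby1.S, a beta-catenin antagonist, by 0.98 and of the nuclear cofactor gene pygo2.L by 0.71.

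Of 40 genes known to respond to Wnt/beta-catenin signals in vertebrate embryos, 7 fell, 1 rose and 32 did not pass with ERK3 MO1/2, with a median of -0.27. With TFAP2A MO1/2, 4 fell and 36 did not pass, with a median of -0.22. Over all 11303 genes, 7.88% and 7.41% were called lower in these comparisons. Of the 40, 8 were not above background in any group. The list also holds otx2, which Wnt signals restrict, so its median gives no direction for Wnt output. The homeobox gene gbx2.2.L read 30.9 and 37.1 in controls, 12.9 and 13.4 after ERK3 knockdown and 8.2 and 10.6 after TFAP2A knockdown, falls of 1.37 (adjusted p = 0.0123) and 1.86 (adjusted p = 0.00792). Its relative gbx2.1.S fell by 0.96 and 0.61, and the hindbrain factor gene meis3.S, at 237.2 and 216.9 in control caps, by 0.92 and 0.98. The zinc finger gene sp5.L fell by 1.19 with ERK3 MO1/2 (adjusted p = 0.0423), where ventx1.1.L, a ventral homeobox gene, rose by 0.51 (adjusted p = 0.0466). The brighter copy ventx1.1.S differed by -0.02 there (adjusted p = 0.972). The remaining falls with ERK3 MO1/2 were those of cdx1.S and both copies of tbxt, and the remaining fall with TFAP2A MO1/2 was that of otx2.S, an anterior gene that Wnt signals restrict.

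Of 29 further planar polarity genes, 2 rose and 1 fell with ERK3 MO1/2, and 3 rose and 1 fell with TFAP2A MO1/2. Among the 29, gpc4.L and both copies of dact1 are also on the list of the beta-catenin route. Their medians were 0.06 and 0.02, with 11 and 12 under 0. In the same comparisons, 11.8% and 12.3% of the 11303 genes were called. The syndecan gene sdc4.L, a Frizzled and Dishevelled partner, read 993.2 and 940.1 in controls, 1605.9 and 1613.5 after ERK3 knockdown and 1428.4 and 1414.3 after TFAP2A knockdown. It rose by 0.74 (adjusted p = 0.0186) and 0.56 (adjusted p = 0.0351), and arrb2.L, the beta-arrestin gene, by 0.63 and 0.67. The copy arrb2.S differed by -0.52 and -0.57 and was not called. The other sdc4 copy, sdc4.S, rose by 0.82 with TFAP2A MO1/2 (adjusted p = 0.0316). The adaptor gene ap2m1.S, needed for Frizzled uptake, fell by 1.32 with TFAP2A MO1/2 (adjusted p = 0.0136) and was higher by 1.91 with ERK3 MO1/2 than with TFAP2A MO1/2 (adjusted p = 0.0141). It read 227.5 and 171.9 in controls. The brighter copy ap2m1.L, at 915.4 and 921.6, differed by 0.40 with TFAP2A MO1/2 (adjusted p = 0.081) and did not pass. The gene cfap126.L, also a ciliary gene, fell by 1.48 with ERK3 MO1/2 (adjusted p = 0.014).

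Markers of other cell types moved beside these values. Over all 11303 genes, 7.88% were called lower and 3.95% higher with ERK3 MO1/2, and 7.41% lower and 4.91% higher with TFAP2A MO1/2. Summed intensity of 18 mesoderm genes was 414.9 to 448.7 in controls, 201.0 to 276.4 after ERK3 knockdown and 360.1 to 414.1 after TFAP2A knockdown, where 4 and 2 genes fell, tbxt, which is on the list of Wnt targets too, among the 4. The mesoderm markers mespa.L and eomes.S were not above background in any group. Of the mesoderm genes, cdx4.L, tbx6.L and both copies of msgn1 are also on the list of Wnt targets. Most of the mesoderm sum in controls came from cdx4.L, at 122.6 and 137.5, and both copies of tbxt. Beside wnt8a.L, which is a mesoderm gene too, the Brachyury gene tbxt.S read 85.4 and 45.0 in controls, 17.7 and 15.4 after ERK3 knockdown and 77.0 and 53.6 after TFAP2A knockdown. Of the 4 that fell with ERK3 MO1/2, actc1.L and fgf8.L also fell with TFAP2A MO1/2. For actc1.L the falls were 1.66 (adjusted p = 0.0377) and 1.64 (adjusted p = 0.0368). After ERK3 knockdown fgf8.L was not above background, a fall of at least 2.23-fold (adjusted p = 0.0152). With TFAP2A MO1/2 it fell by 1.11 (adjusted p = 0.0266). Summed intensity of 13 neural crest and plate border genes was 3547.6 to 3583.3, 2280.8 to 2532.0 and 2018.6 to 2181.0 in the same order. Of these genes 2 fell in each knockdown and 5 were at background throughout, among them both copies of foxd3. Most of that sum was pax3.L, at 2391.8 and 2237.2 in controls, 1410.8 and 1573.9 after ERK3 knockdown and 1110.0 and 1337.5 after TFAP2A knockdown. For 8 cement and hatching gland genes the sum was 2002.3 to 2542.9, 527.8 to 1110.6 and 654.8 to 804.7, with 3 and 5 falling. Of 12 neural genes 1 fell in each, and of 6 ionocyte genes 1 and 3. The neural gene that fell with TFAP2A MO1/2 was otx2.S, which is on the list of Wnt targets too. Of 11 multiciliated cell genes 0 were called by limma in either knockdown. There 3 and 5 had an unadjusted p under 0.05, beside 3439 and 3435 of all 11303 genes. Of 8 endoderm genes 2 fell with ERK3 MO1/2, both copies of gata4, and 2 rose with TFAP2A MO1/2, both copies of mix1. In control and ERK3 knockdown caps mix1.S was not above background. Of 16 epidermal genes 1 fell with ERK3 MO1/2 and 6 fell with TFAP2A MO1/2, with sums of 37832.3 to 39644.8 in control caps, 32248.7 to 33508.3 and 25662.3 to 26698.8. The part of these shifts in the levels of the Wnt and polarity genes was not tested.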

How the data were processed

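Gene expression was measured in 6 samples on the second Affymetrix array of the Xenopus laevis genome, from 250 ng of total RNA each. According to the design text of the series, the authors obtained the deposited intensity values with the RMA method of Expression Console. RMA gives the probe-level values of every array the same distribution, so a shift shared by most transcripts would not show. The deposited probe set values still differed somewhat between arrays, with medians from 23.2 to 24.6. These intensities ran from 2.51 to 14672, so log2 was taken with no added constant.

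Of 32635 probe sets, 96 manufacturer controls were left out. A platform annotation of 2016 named the genes, and 66 of the 69 members matched the RefSeq table of Xenopus_laevis_v10.1, used for names only. The sources used here name no genome build, so no coordinates are given.

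Log2 values were fitted with limma 3.58.1 in R 4.3.3 (lmFit and eBayes, 1 mean per group, 3 residual and 2.99 prior degrees of freedom), two-sided, with Benjamini-Hochberg adjustment within each comparison, and the fit was tested on simulated data. Intervals are unadjusted 95% intervals of that fit. Arrays have no read depth, and 2 per group limit the precision. A bound ("at least") sets the brighter group's mean against the lower quartile of the dim group's arrays.

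Named members are those called in any comparison, their homeologues and the brightest 2 of each role in control caps, and of other lists up to 6 called genes by adjusted p. The other members named with values (wnt5b.S, ror2.L, lrp6.L, prickle3.L, celsr2.L, gsk3b.L, lef1.S, tcf7.S, daam1.S, axin1.L, axin1.S, axin2.L, axin2.S, ptk7.L, ptk7.S and dkk3.S) were chosen after their values were seen. So were sp5.L, ventx1.1.L, ventx1.1.S, ap2m1.L and arrb2.S of the other lists. The members and lists were chosen with earlier results of these data known. Alternatives were the log constant, a filter on dim probe sets, renormalization, the mean of a gene's probe sets, the prior, the groups fitted, the replicate block and leaving out each array.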

Additional observations from a re-analysis of the deposited data

How the results depend on the processing

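No called member reversed its direction in any alternative run. For most settings this was fixed in advance. The compared groups of every call did not overlap, so leaving out 1 array could not reverse a sign. Nor could the log constant, the prior, the groups fitted or the replicate block. Calls with ERK3 MO1/2 numbered 9, and 5 with log2(intensity + 16), 4 with only the groups compared in the fit, 18 with the replicate block, and 0 to 6 without 1 array. With TFAP2A MO1/2 they numbered 9, and 19 with the replicate block and 0 to 8 without 1 array. In the direct comparison they numbered 3, and 1 with only the groups compared, 13 with the replicate block and 0 to 1 without 1 array. With log2(intensity + 16), 10.2% of all probe sets were called with ERK3 MO1/2. With the values quantile normalized again, calls numbered 6, 9 and 3 in the 3 comparisons, beside 10.7%, 11.3% and 4.88% of all probe sets. Those lost with ERK3 MO1/2 were fzd10.L, prickle1.S and wnt8b.S. The median difference of the members ran over all settings from -0.11 to 0.05, from -0.10 to -0.01 and from -0.02 to 0.08 in the 3 comparisons. Of 165 values of the 21 calls under the settings that keep all arrays of both groups, 136 stayed past the threshold and 29 did not. The calls of vangl1.L and dkk1.S with each knockdown, of fzd8.S and wnt8a.L with ERK3 MO1/2 and of apc.L and fzd3.L with TFAP2A MO1/2 stayed in all of these. Over all probe sets the replicate block called 7945, 7934 and 4831 where the fit without it called 3443, 3677 and 1552, and with only the groups compared 2002 were called for ERK3 MO1/2 and 295 in the direct comparison. Deviations of same-numbered arrays from their group means correlated at 0.535 to 0.595 across probe sets. The labels do not say that a number marks a shared batch, and with 2 numbers the block stays an alternative, under which all 21 calls held. The genes it added were, with ERK3 MO1/2, apc.L, fzd2.S, gsk3a.L, lef1.S, lrp6.L, porcn.L, prickle3.L, tcf7.S and wnt11b.L, and with TFAP2A MO1/2, daam1.S, gsk3a.L, gsk3b.L, lef1.S, lrp6.L, prickle3.L, ror2.L, wnt5b.S, wnt7b.L and wnt8a.L. In the direct comparison it added frzb.L, frzb.S, porcn.L, prickle1.L, prickle1.S, ror2.L, tcf7.S, vangl1.L, wnt5b.S and wnt8b.S.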

Other observations

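Copies of a gene can be set side by side for 10 homeologue pairs among the members. With ERK3 MO1/2, fzd10 fell by 0.56 in the L copy and differed by -0.21 in the S copy, prickle1 differed by -0.60 in the L copy and fell by 0.86 in the S copy, and vangl2 differed by -0.30 and -0.26. With TFAP2A MO1/2, axin1 differed by -0.04 in the L copy and 0.60 in the S copy, and prickle1 by 0.58 and -0.10. Of these, axin1.L was not above background in any group, and axin1.S, at 5.3 and 6.9 in controls, was near the lower quartile there. The values of frzb.L and frzb.S, the pair called higher with TFAP2A MO1/2 near background, are given above. No test of the difference between copies was run. The ligand gene wnt5b.S, a relative of Wnt5a, read 44.8 and 54.6 in controls, 36.4 and 51.1 after ERK3 knockdown and 57.1 and 83.1 after TFAP2A knockdown, with differences of -0.20 (adjusted p = 0.671) and 0.48 (adjusted p = 0.293) that did not pass.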
